A study of Mus musculus with 8 samples.

Results

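The Hox cluster genes were taken as all mouse genes named Hoxa, Hoxb, Hoxc or Hoxd with a paralogue number and read by at least 1 probe set that names no other gene. Of the 39 genes of this family in the RefSeq gene table, 33 met the rule, out of 18193 genes measured in all. They were 9 genes of the Hoxa cluster, 9 of Hoxb, 7 of Hoxc and 8 of Hoxd. The remaining 6 were not analysed here as single genes. Where several probe sets read a gene, its brightest on average over the 8 arrays was used.

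RNA came from palatal mesenchyme of C57BL/6J mouse embryos at embryonic day 13.5, cultured as primary cells and collected after 2 passages. The mutant group was Tgfbr2 fl/fl; Wnt1-Cre (4 Affymetrix arrays) and the control group Tgfbr2 fl/fl with no Cre named (4 arrays). By these genotype labels all embryos carried floxed alleles of this TGF-beta receptor gene, although the control titles read Wildtype, and Wnt1-Cre removes the floxed segment chiefly in the neural crest lineage. A bulk sample cannot tell fewer cells of a type from less RNA in each cell. Whether the 4 cultures of a group derive from separate embryos is not stated in the labels. The p-values below therefore rest on the spread among these arrays, some of which may be technical.

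Hox genes encode homeodomain transcription factors that give cells their position along the head-to-tail axis. They lie in 4 clusters, on mouse chromosomes 6 (Hoxa), 11 (Hoxb), 15 (Hoxc) and 2 (Hoxd), and low-numbered paralogues are switched on earlier and further forward than high-numbered ones. The palate forms from neural crest of the most anterior pharyngeal arch, which is known for lacking Hox expression. Neural crest of the next arch expresses Hoxa2, which gives that arch its identity.

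The labelled tissue was checked against markers of cranial mesenchyme. Of 19 such markers, 16 exceeded the array's median probe set on each of the 8 arrays, and the mesenchymal homeobox gene Prrx1 read 13.17 to 13.73. The palate genes Osr2 and Tbx22 lay below it on every array, at 6.22 to 6.91 and 4.70 to 5.13. Of 20 macrophage and leukocyte markers, 19 lay above it on all 8 arrays, with array means of 10.81 to 12.44 in controls and 10.87 to 13.08 in mutants. Between genotypes the difference was positive for all 20 of these markers (median 0.83). In limma 0 had an adjusted p under 0.05, against 0.0879% of all genes. An unadjusted p under 0.05 in limma was reached by 5, all higher in mutants, against 5.84% of all genes higher. The targeted gene Tgfbr2 did not check the labels: its brightest probe set read 12.04 in control and 12.42 in mutant cells (adjusted p = 0.568 by limma, a linear model fitted to every probe set), and the position of its probes against the floxed exons was not examined.

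Most Hox genes were dim in cells of both genotypes. Values are log2 intensities, and each array's median over all probe sets (6.90 to 6.96) served as the line between dim and bright. Of the 33 genes, 22 lay below that line on all 8 arrays, 7 lay above it on all 8 and 4 crossed it. Among all 18193 genes, 62.2% lay above it on every array and 28.9% below. No Hox gene reached the 75th percentile of any array, and the highest mean was 8.15, near the middle of the means of all genes (median 8.17). Probe sets differ in how strongly they bind, so the line sorts values without giving amounts of RNA, and levels are not ranked between genes.

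Olfactory receptor genes gave another gauge of dim signal, since they belong to sensory neurons of the nose. Of 39 measured, 37 lay below the array median on every array and 1 above it on every array, with means of 4.34 to 7.16. The median of the gene means was 5.34 for olfactory receptors and 6.23 for Hox genes. The 95th percentile of the olfactory receptors was 6.46 to 6.82 by array, and 9 Hox genes exceeded it on all 8 arrays.

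**Figure D1:**
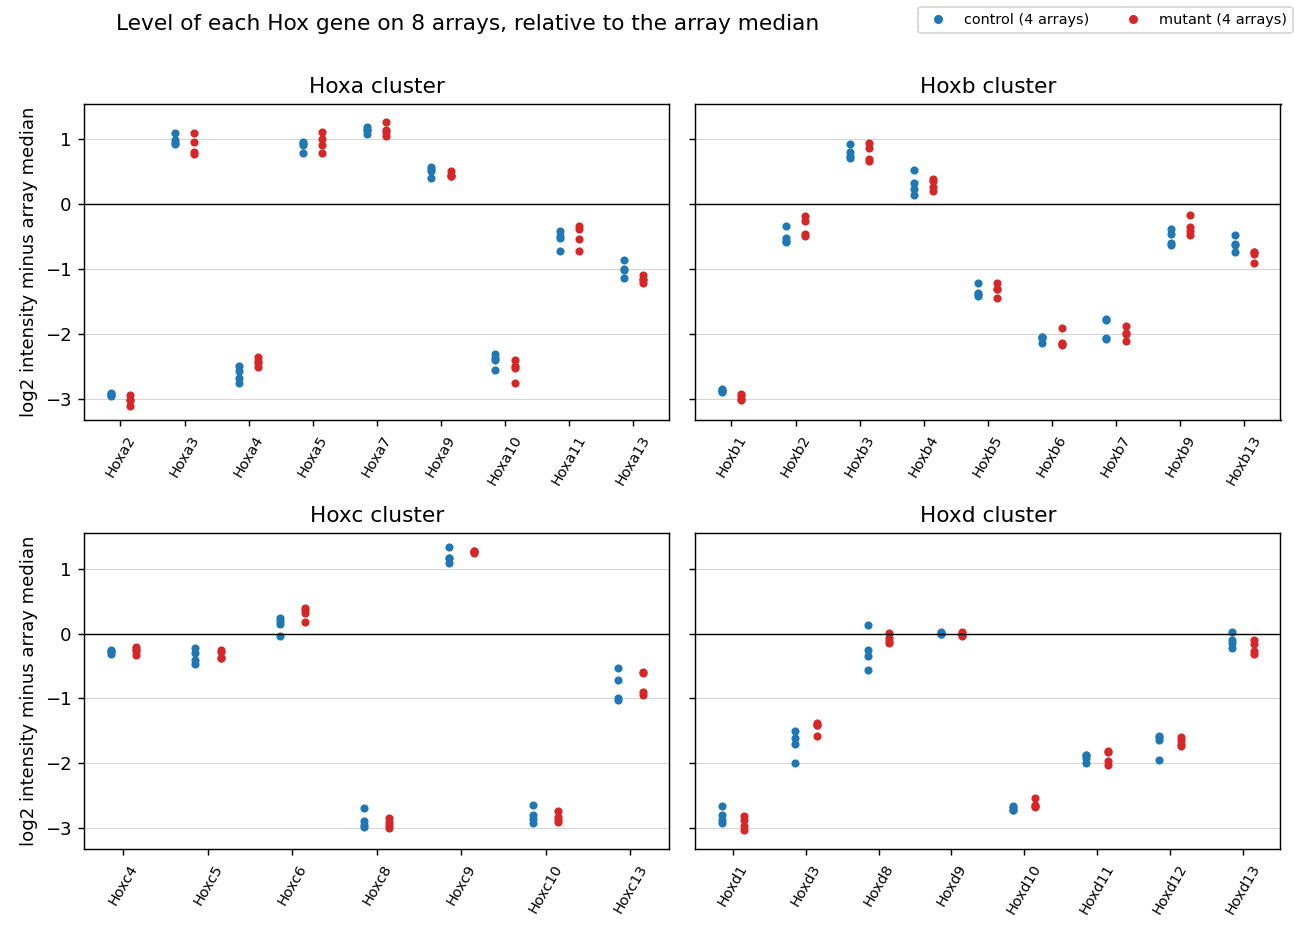
Level of each of the 33 Hox genes on every array, as log2 intensity minus that array's median over all probe sets; blue points are the 4 control and red points the 4 mutant arrays. The 22 genes below the line on all 8 arrays include Hoxa2, and on this centred scale the groups overlap for 32 of the 33 genes, Hoxb1 being the exception.

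Paralogues 1 and 2, which mark the hindbrain and the arch behind the palate's own, were dim throughout. Hoxa2 read 3.98, 3.98, 3.97 and 3.96 on control arrays 1 to 4 and 3.92, 3.81, 4.01 and 3.94 on mutant arrays 1 to 4. Hoxb1, a gene of the hindbrain segment that gives rise to the facial nerve, read 4.03, 4.03, 4.03 and 4.07 in controls and 3.92, 3.99, 3.99 and 3.96 in mutants. Hoxd1 lay between 3.92 and 4.27 and Hoxb2 between 6.32 and 6.76. All 4 genes stayed below the array median on all 8 arrays.

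Both genotypes gave the 7 genes above the line at like levels. Hoxa3, needed for the thymus and parathyroids, read 7.84, 7.89, 8.02 and 7.85 in controls and 7.90, 7.68, 7.75 and 8.05 in mutants. Hoxb3, its paralogue, read 7.70, 7.61, 7.85 and 7.67 in controls and 7.61, 7.78, 7.64 and 7.90 in mutants. Hoxb4, known also from blood stem cells, read 7.13, 7.43, 7.24 and 7.06 in controls and 7.30, 7.30, 7.21 and 7.17 in mutants. In all 3 the groups overlapped and no array stood apart. Hoxa5, which patterns the lung and the neck vertebrae, read 7.84, 7.87, 7.70 and 7.84 in controls and 8.05, 7.92, 7.86 and 7.75 in mutants. Hoxa7, a gene of the trunk, read 8.08, 7.99, 8.06 and 8.07 in controls and 8.21, 8.05, 8.06 and 8.01 in mutants. These groups overlapped too, with mutant 1 the highest array for both genes. Hoxa9, known from limbs and from blood progenitors, read 7.40, 7.31, 7.46 and 7.49 in controls and 7.46, 7.35, 7.40 and 7.39 in mutants. Hoxc9, which acts in thoracic motor neurons, read 7.98, 8.07, 8.08 and 8.25 in controls and 8.22, 8.16, 8.20 and 8.24 in mutants. The lowest 3 arrays for Hoxc9 were controls, yet control 4 was the highest of all.

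The genes above the line followed no single position in the clusters. They were 4 of 9 in Hoxa, 2 of 9 in Hoxb, 1 of 7 in Hoxc and 0 of 8 in Hoxd. By paralogue number they were 3 of 10 for paralogues 1 to 4, 2 of 9 for 5 to 8 and 2 of 14 for 9 to 13. Only paralogues 3 and 9 had more than 1 gene above the line on all arrays: Hoxa3 and Hoxb3, and Hoxa9 and Hoxc9. None of the 3 measured genes of paralogue 10 (Hoxa10, Hoxc10 and Hoxd10, at mean levels of 4.45, 4.11 and 4.27), which act in the lumbar region and limbs, reached it. The genes of paralogue 13, which act at the tail end of the axis and in digits, lay below it on every array except Hoxd13 on control 4 (6.94).

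Of the 4 genes that crossed the line, Hoxd9 stayed closest to it and Hoxd8 ranged most widely. Hoxc6, a thoracic gene, read 6.86, 7.14, 7.07 and 7.11 in controls and 7.34, 7.09, 7.26 and 7.32 in mutants, and fell short of the median on control 1 alone. Hoxd9 read 6.92, 6.92, 6.91 and 6.92 in controls and 6.93, 6.88, 6.92 and 6.99 in mutants, above the median on 3 arrays. Hoxd8 read 6.35 to 7.03 and was above the median on 2 arrays. Hoxd13 read 6.63 to 6.94 and was above the median on 1. The SD of Hoxd9 over the 8 arrays, 0.03, was the smallest of the 33.

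Further probe sets did not repeat the brightness of the genes above the line. The 33 genes had 48 probe sets, of which 7 lay above the array median on all 8 arrays, 36 below it on all 8 and 5 on both sides. For 11 genes with several probe sets there were 15 besides the brightest: 0 lay above the line on all arrays, 14 lay below it on all 8, and 1 of Hoxc6 crossed it. Of the 7 genes above the line, 5 had a further probe set: the means of the others were 6.34, 5.09 and 4.50 for Hoxa3, 5.21 for Hoxa5, 4.89 for Hoxa9, 4.24 for Hoxb3 and 4.81 for Hoxb4. Hoxa7 and Hoxc9 had a single probe set each. When a gene's probe sets were averaged, 2 genes instead of 7 lay above the median on all 8 arrays. These were Hoxa7 and Hoxc9, whose values averaging could not change, so it gave no check of them.

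**Figure D2:**
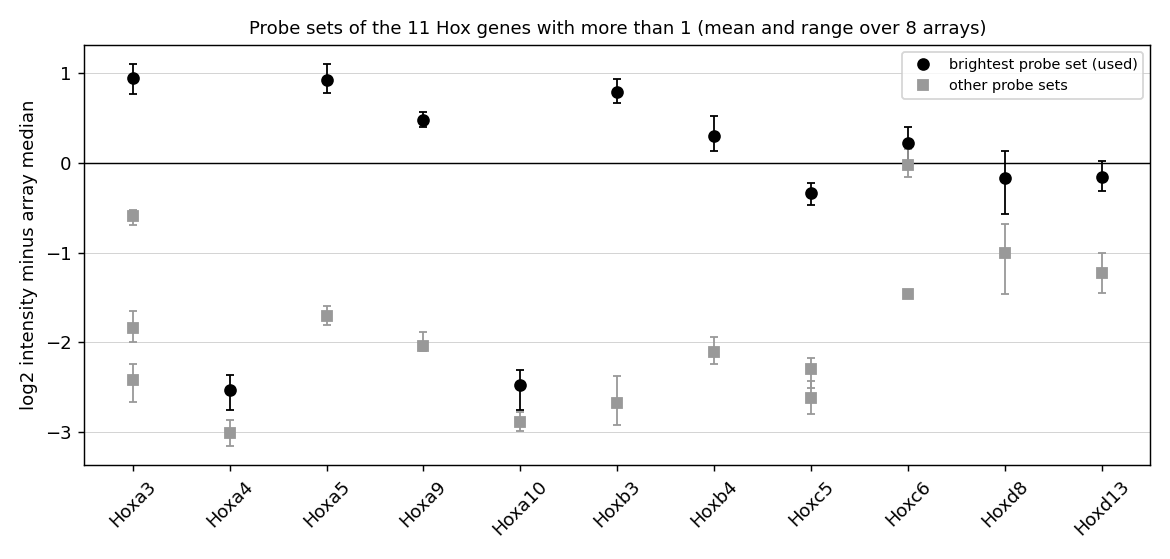
Probe sets of the 11 Hox genes read by more than 1, as log2 intensity minus the array median (point: mean; bar: lowest to highest of 8 arrays). Black circles are the brightest probe sets used elsewhere in the text, and 14 of the 15 others (grey squares) lie below the line on all arrays.

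Promoter sequences were available for 19 of the 33 genes in the RefSeq table (GRCm38.p6), 21 windows of 300 bases from 250 before to 50 after a gene start. They are shown because Hox promoters are known for the density of CpG, the dinucleotide that attracts Polycomb repressors, and because the levels can be set beside it. The 4 below cover a gene at the arch boundary that was dim (Hoxa2), 2 above the line (Hoxa7 and Hoxb4) and the one with the largest genotype difference (Hoxd3). They lie at chr6:52164782-52165081 (Hoxa2, minus strand), chr6:52218524-52218823 (Hoxa7, minus), chr11:96318017-96318316 (Hoxb4, plus) and chr2:74711743-74712042 (Hoxd3, plus). Capitals mark each CpG, and sequences run 5′ to 3′ on the gene's strand.
Hoxa2: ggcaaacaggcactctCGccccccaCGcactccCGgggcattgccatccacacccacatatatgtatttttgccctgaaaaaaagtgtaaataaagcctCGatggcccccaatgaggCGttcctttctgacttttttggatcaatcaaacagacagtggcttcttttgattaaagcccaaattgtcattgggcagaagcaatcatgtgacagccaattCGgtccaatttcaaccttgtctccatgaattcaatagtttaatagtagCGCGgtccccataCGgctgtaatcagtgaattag
Hoxa7: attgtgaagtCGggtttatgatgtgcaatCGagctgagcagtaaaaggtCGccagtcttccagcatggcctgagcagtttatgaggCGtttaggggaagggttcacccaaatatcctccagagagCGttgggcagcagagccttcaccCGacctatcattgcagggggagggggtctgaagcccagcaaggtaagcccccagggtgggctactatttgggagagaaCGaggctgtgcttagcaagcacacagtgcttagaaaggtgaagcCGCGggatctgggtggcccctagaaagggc
Hoxb4: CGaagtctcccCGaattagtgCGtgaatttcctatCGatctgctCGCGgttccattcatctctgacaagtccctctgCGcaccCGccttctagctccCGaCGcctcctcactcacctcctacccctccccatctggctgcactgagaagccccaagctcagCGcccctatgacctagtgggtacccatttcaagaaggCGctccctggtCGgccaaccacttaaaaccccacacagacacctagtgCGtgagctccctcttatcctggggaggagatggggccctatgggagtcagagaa
Hoxd3: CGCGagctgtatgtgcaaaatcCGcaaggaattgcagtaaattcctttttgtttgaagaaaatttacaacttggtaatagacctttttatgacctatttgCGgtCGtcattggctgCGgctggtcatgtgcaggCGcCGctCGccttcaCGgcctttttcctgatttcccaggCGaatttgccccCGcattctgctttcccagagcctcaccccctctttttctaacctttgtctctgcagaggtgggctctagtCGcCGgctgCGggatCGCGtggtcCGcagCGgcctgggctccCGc

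CpG density was high in these windows, with overlapping ranges for genes above and below the line. The median was 15 CpG per window for the 21 Hox windows and 7 for all 32851 promoter windows in the table, and 18 of the 21 exceeded that 7. Hoxa2, below the array median on all 8 arrays, and Hoxa7, above it on all 8, both held 9. The 5 windows of genes above the line held 4 to 29 (median 14), and the 13 windows of genes below it 4 to 45 (median 15). On either strand, the letters TGACAG, known as a Meis binding motif, occurred in 2 of the 21 windows (Hoxa2 and Hoxa3) and in 19.2% of all windows. The letters TGATTNAT, a motif of Pbx-Hox pairs, occurred in 2 (Hoxa2 and Hoxd11) and in 3.2% of all windows. A match is only a match of letters.

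Hox signals were also flat across the arrays. Over the 8 arrays the SD of a Hox gene was 0.03 to 0.22, with a median of 0.11. The median SD was 0.13 for the olfactory receptors, 0.15 for the 8848 genes whose mean lay within the range of the Hox means, and 0.30 for 19 other homeobox genes of first-arch mesenchyme such as the Dlx and Msx genes. For 30 of the 33 genes the highest and lowest arrays were less than 0.5 apart, and the widest range, for Hoxd8, was 0.68. Of those 19 homeobox genes, 13 lay above the array median on all 8 arrays, against 7 of 33 Hox genes and 62.2% of all genes.

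**Figure D3:**
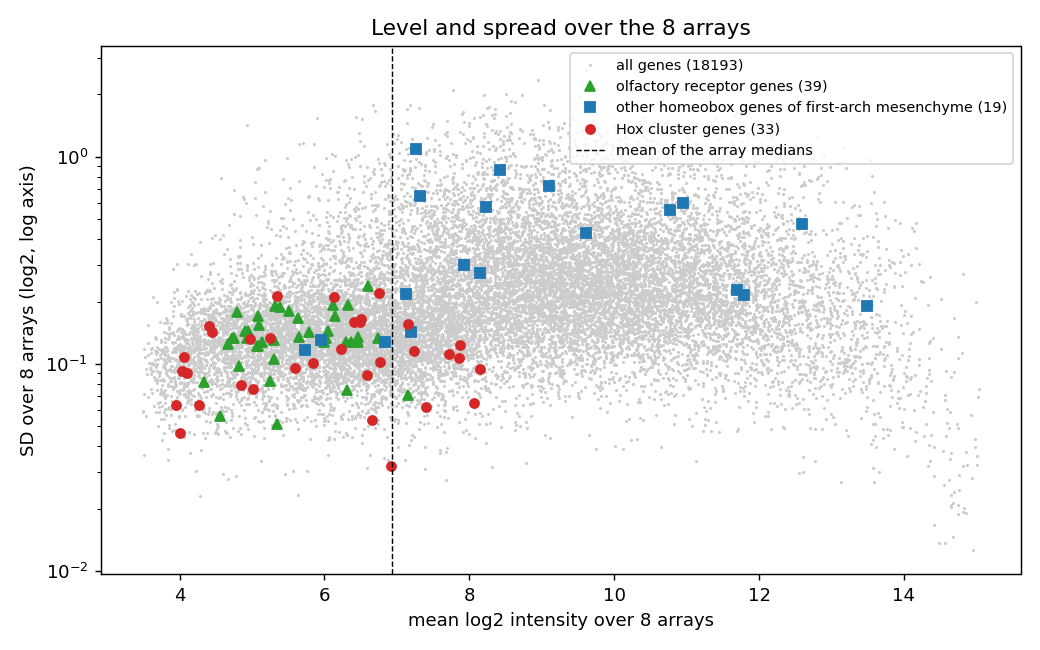
Mean log2 intensity over 8 arrays against the SD over the same arrays (log axis) for all 18193 genes (grey), 39 olfactory receptor genes (green), 19 other homeobox genes of first-arch mesenchyme (blue) and 33 Hox genes (red); the dashed line is the mean of the array medians. Hox genes stay at or below an SD of 0.22. Of the 19 other homeobox genes, 13 lie above the array median on all arrays, against 62.2% of all genes.

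The genotypes were compared next: did any Hox gene differ between cells labelled mutant and control? No Hox gene passed the test. Of 33 genes, 0 had an adjusted p under 0.05 in limma with Benjamini-Hochberg adjustment over all genes, where 0.0879% of all 18193 genes passed (16 genes, 0.022% higher and 0.066% lower). The smallest adjusted p among them was 0.261. An unadjusted p under 0.05 was reached by 2 of 33 in limma, both higher in mutants, against 15.5% of all genes (5.84% higher and 9.69% lower). The differences (mutant minus control, log2) ran from -0.14 for Hoxb13 to 0.29 for Hoxd3, with a median of 0.03 beside -0.00778 over all genes. They were positive for 22 genes and negative for 11, and 48.3% of all genes were positive. The mean array median was also 0.03 higher in mutants. With arrays centred on their medians, which lowers every difference by that amount, 17 Hox genes were positive and 16 negative (19 and 14 after repeated quantile normalisation).

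The precision of these values allows a bound on the size of a difference. Each gene's own 95% interval in limma lay inside a 1.5-fold change in either direction for all 33 genes, and the widest reach was 0.54 on the log2 scale. The median size of a difference was 0.06 for Hox genes and 0.12 for all genes. Many of these probe sets are dim, where array values understate a change in RNA, so the bound holds for the measured intensity.

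The 2 genes with an unadjusted p under 0.05 were both dim, and without mutant 3 or without mutant 4 their number in limma was 0. Hoxd3, which patterns the upper neck vertebrae, read 5.20, 5.29, 5.41 and 4.93 in controls and 5.36, 5.50, 5.54 and 5.58 in mutants. Mutants 2, 3 and 4 were the highest arrays, and mutant 1 lay below control 3, so the groups overlapped. The difference was 0.29 (SE 0.11, adjusted p = 0.285 in limma), with 0.18 and 0.39 inside the array sets split by hybridisation that are described below. Hoxa4, a gene of the neck region, read 4.14, 4.33, 4.42 and 4.25 in controls and 4.44, 4.47, 4.53 and 4.60 in mutants. All 4 mutant arrays lay above all 4 controls, though with arrays centred on their medians mutant 1 fell just below control 3. The difference was 0.23 (SE 0.08, adjusted p = 0.261 in limma) and 0.23 within either array set. The other probe set of Hoxa4 differed by 0.08.

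Hoxa4 was 1 of 2 Hox genes whose groups did not overlap, against 8.07% of all genes (2.89% higher and 5.18% lower). The other was Hoxb1, lower in mutants by 0.07 on the log2 scale (4.04 ± 0.02 in controls, 3.97 ± 0.03 in mutants, SD, n = 4 each; adjusted p = 0.598 in limma). Both lay below the array median on all 8 arrays. Of the genes above the line, Hoxc9 differed by 0.11 (SE 0.08) and Hoxa5 by 0.08 (SE 0.09), and the other 5 by -0.05 to 0.03. Hoxc6, just above the line, differed by 0.20 (SE 0.09, adjusted p = 0.333 in limma), with 0.17 and 0.03 for its other probe sets. Of the 15 further probe sets of the 11 genes, 12 had the sign of the brightest one.

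**Figure D4:**
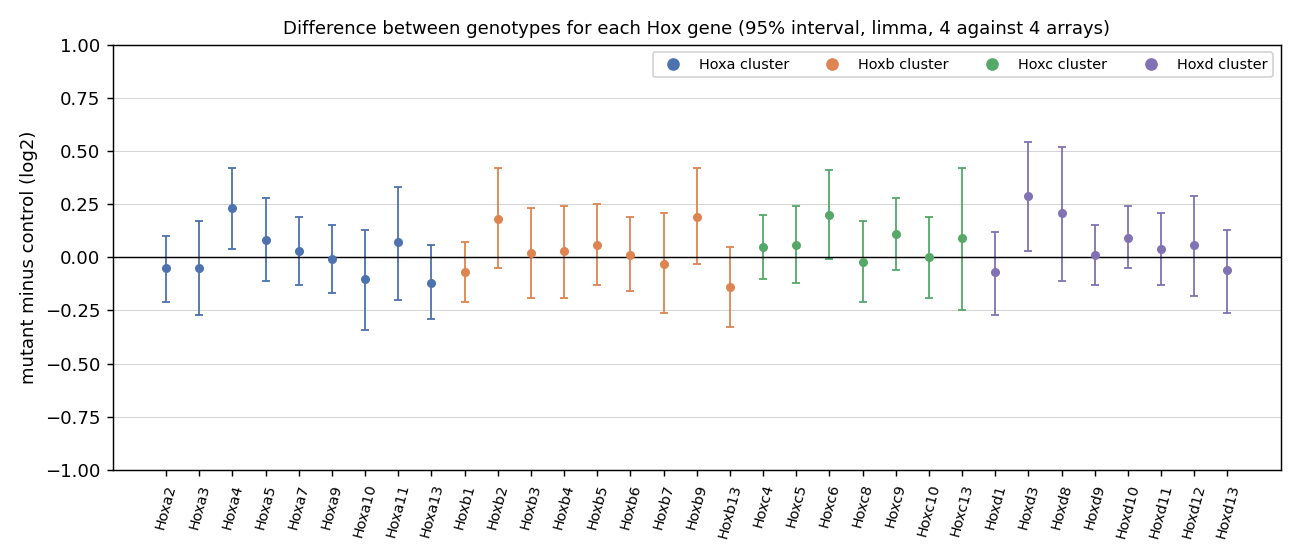
Difference between mutant and control (log2) for each of the 33 Hox genes, coloured by cluster; points are limma estimates from 4 against 4 arrays and bars their 95% intervals for a single gene. The estimates lie between -0.14 and 0.29, and the intervals exclude 0 for Hoxa4 and Hoxd3 before any adjustment.

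The median difference was -0.01 over 9 Hoxa genes, 0.02 over 9 Hoxb genes, 0.06 over 7 Hoxc genes and 0.05 over 8 Hoxd genes. Single paralogue groups, of 1 to 4 genes each, ran from -0.09 for paralogue 13 and -0.07 for paralogue 1 to 0.09 for paralogue 8 and 0.11 for paralogue 6. By array, 8 or 9 of the 33 genes exceeded the array median in every culture of either genotype. The Hox count past the threshold stayed 0 with the mean of the macrophage markers as a covariate, where 0.33% of all genes passed in limma. In that fit 3 of 33 Hox genes had an unadjusted p under 0.05 in limma, against 17.4% of all genes.

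Between array sets that differ in their hybridisation controls, Hoxc13 was the only Hox gene to pass, a share close to that of all genes. The bioB spike-in controls, which report on hybridisation, split the arrays: those numbered 1 and 2 in each group read 6.34 to 6.52, and those numbered 3 and 4 read 8.24 to 8.79. Between these array sets, with genotype in the model, 1 of 33 Hox genes passed limma (3.19% of all genes) and 3 had an unadjusted p under 0.05 (27.3% of all genes). Hoxc13, a regulator of hair keratins, read 5.91 and 5.88 on controls 1 and 2 and 6.05 and 5.97 on mutants 1 and 2. On replicates 3 and 4 it read 6.20 and 6.39 in controls and 6.35 and 6.35 in mutants. It was 0.37 higher there (adjusted p = 0.0413 in limma), while its genotype difference was 0.09. The array sets did not overlap for Hoxc13 and Hoxa11, 2 of 33 genes, against 13.5% of all genes.

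Hox proteins bind DNA with cofactors of the TALE homeodomain class, the Meis, Pbx and Pknox proteins. Of 8 measured, 6 lay above the array median on all 8 arrays, against 62.2% of all genes. Between genotypes 1 passed the test, against 0.0879% of all genes. Meis1 read 9.02, 8.77, 8.94 and 9.03 in controls and 7.72, 8.08, 7.87 and 7.93 in mutants, where it fell by 1.04 on the log2 scale (SE 0.10, adjusted p = 0.0284 in limma). In the limma fit to every probe set, Meis1 did not pass with this probe set (adjusted p = 0.0562). All mutant arrays lay below all controls. Its 2 other probe sets, dimmer, differed by -0.00201 and 0.09, and with the 3 averaged the difference was -0.31 (adjusted p = 0.215 in limma). Leaving out control 1, 2 or 3 or mutant 1, 2 or 3 ended the call for Meis1 (adjusted p = 0.0571 to 0.107 in limma), with differences of -1.10 to -0.98. It also ended with the replicate number as a block (adjusted p = 0.102 in limma), with a block for labelling sets read from poly-A controls (0.0535), and within the arrays numbered 3 and 4 (0.819). The other cofactors differed by -0.25 for Pbx3, -0.13 for Meis2 and Pknox1, -0.10 for Meis3, -0.06 for Pbx4, 0.01 for Pknox2 and 0.34 for Pbx2, and none of them passed.

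Chromatin regulators that hold Hox clusters silent or active were mostly bright, and none passed the test between genotypes. Polycomb repressive complex 1, which compacts silent chromatin, had 16 of 19 members above the array median on all 8 arrays, against 62.2% of all genes. Its median difference was -0.24, with 17 of 19 negative, and 3 were lower at an unadjusted p under 0.05 in limma, against 9.69% of all genes. The macrophage markers given above had a median difference of 0.83 on the same arrays, and their part in these values was not tested. Polycomb repressive complex 2, which writes the repressive mark on histone H3, had 11 of 11 above the median, a median difference near 0 and 1 member in each direction at that level (5.84% of all genes higher and 9.69% lower). Trithorax proteins and H3K27 demethylases, which keep Hox genes active, had 15 of 16 above it and a median difference of 0.11, with 1 in each direction. Over all genes the median was -0.00778.

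Genes known to act upstream of Hox clusters were often dim. Of 15 measured, 4 lay above the array median on all 8 arrays (62.2% of all genes) and 8 below it on all 8 (28.9%). Their median difference was -0.04. In limma 0 passed (0.0879% of all genes) and 0 had an unadjusted p under 0.05 (15.5%). The caudal genes Cdx1, Cdx2 and Cdx4, which switch on posterior Hox genes, read 6.10 to 6.36, 6.25 to 6.74 and 4.12 to 4.57, with overlapping groups. The retinoic acid receptors Rara and Rarg were above the line on all arrays and differed by -0.08 and -0.18.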

How the data were processed

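The authors deposited log2 intensities made with RMA, per the submitters' processing notes, without a version in the sources used here. Values ran from 3.21 to 15.18 and were used as deposited. The arrays hold 45101 probe sets: 34945 pair with a single symbol, 932 with more, 64 are controls and 9160 are unnamed here. Symbols were updated by Entrez identifier through RefSeq (GRCm38.p6), which matched 34741.

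Arrays were grouped by title (Conditional Knockout or Wildtype), and genotypes are those of the genotype label. Differences were fitted over all 18193 genes with limma 3.58.1 in R 4.3.3 (functions lmFit and eBayes; two-sided; genotype as the only term), adjusted with Benjamini-Hochberg and called under 0.05; SEs are moderated. The procedure was tested on simulated data. The number of arrays limits the precision.

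The members, gene lists and tests were chosen with earlier results of these data known. Any member could be named, with values on all arrays for those above the median on all arrays or with an unadjusted p under 0.05; other lists gave counts, all TALE cofactors, and up to 4 genes. Alternatives covered probe set choice, normalisation, dim genes, variance, weights, array sets read from spike-in controls, and single arrays. Same-numbered arrays deviated with correlations of 0.473, 0.416, -0.092 and 0.371, and the bioB array sets follow the numbers in both groups. The titles number the arrays without stating a pairing, so the main fit left the numbers out. A fit with the replicate number as a block was among the alternatives.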

Additional observations from a re-analysis of the deposited data

Results flagged for a closer look

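Among 66 groups of 4 arrays (33 Hox genes in each genotype), 2 held 1 array far from the others, where chance gives about 1 in 20 groups. Hoxb1 read 4.07 on control 4 against 4.03 on each other control. Hoxb6 read 5.0 on mutant 2 against 4.79 to 4.80 on the other mutants. Both genes lay below the array median on all 8 arrays.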

How the results depend on the processing

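No Hox gene passed limma in any of 21 alternative fits (the smallest adjusted p was 0.089), including the replicate block, where 0 of 33 passed and 2 had an unadjusted p under 0.05. The count at an unadjusted p under 0.05 in limma was 2 as reported. It was 3 with array weights and with the macrophage covariate. It was also 3 with a block for the array sets split by bioB or by poly-A controls. These sets were read from spike-in controls and are not batches given in the labels. The count was 1 with probe sets averaged, with quantile normalisation and with centred arrays. It was 0 with dim genes left out (8 Hox genes kept) and 0 within either bioB array set. Leaving out 1 array gave 0 to 3 (0 without mutant 3 or mutant 4, 1 without control 1, 3 without control 3 or mutant 2). Of 668 single-gene values, 53 in 16 genes had another sign than reported, all with no call, and 9 moved by at least 1 SD. The count above the array median, 7 as reported, was 0 at the 75th percentile and 11 on at least 1 array. With probe sets averaged it was 2, namely Hoxa7 and Hoxc9, which have a single probe set each. Leaving out 1 array gave 7 to 8. The count above the 95th percentile of olfactory receptors, 9 as reported, was 4 with probe sets averaged, 12 at the 90th and 7 at the 99th percentile. All genes past the threshold numbered 16 as reported. They numbered 3 with the most variable probe set, 1470 with array weights and 2 with a block for the poly-A array sets. Within the bioB array sets they numbered 2085 and 0. With the replicate block they numbered 0, and with the macrophage covariate 60. Without 1 array they numbered 0 to 1316 (1316 without mutant 4, 31 without control 4, 0 to 2 without any other). Dim signal limits what a probe set can show.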

Other observations

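Genes that flank the Hox clusters did not share their dimness. Of 12 measured, 10 lay above the array median on all 8 arrays, against 62.2% of all genes. The median difference between genotypes was -0.02, and 0 passed the limma test, against 0.0879% of all genes. An unadjusted p under 0.05 in limma was reached by 1 gene, higher in mutants, against 5.84% of all genes higher. That gene was Skap2, a signalling adaptor of leukocytes beside Hoxa. It read 11.90, 12.24, 11.36 and 11.17 in controls and 13.15, 12.77, 13.15 and 11.61 in mutants (difference 1.01, SE 0.38, adjusted p = 0.270 in limma). The macrophage marker mean on the same arrays was 12.22, 12.44, 11.03 and 10.81 in controls and 13.05, 13.04, 13.08 and 10.87 in mutants; its part in the Skap2 values was not tested. Evx2, the homeobox gene next to Hoxd13, read 7.02 to 7.26, and Evx1, next to Hoxa13, 6.10 to 6.51.

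Probe sets naming a pair of Hox genes were dim or close to the line. Those for Hoxd4 with Hoxd3 read 6.85 to 7.30 (above the array median on 7 arrays) and 5.39 to 6.10, and differed by 0.14 and -0.08 between genotypes. That for Hoxb8 with Hoxb7 read 4.17 to 4.55 and differed by -0.02. Of the noncoding RNAs of the clusters, 3 were measured: Hoxa11os read 4.10 to 4.84, Hoxd3os1 4.52 to 4.85 and Hoxb5os 6.64 to 7.35, the last highest on mutant 4. Their differences were -0.23, -0.08 and 0.08, and none passed in limma. The strand of the sample is unmarked in the sources used here, so overlap with sense genes could not be checked.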
